A study of Mus musculus with 32 samples.

Results

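The genes followed here were 10 genes of interleukin-6 (IL-6) family signalling. They comprised the ligands Il6, Lif and Osm, the receptor chains Il6ra, Il6st, Lifr, Osmr and Il11ra1, the transcription factor gene Stat3 and the feedback inhibitor gene Socs3. The genes were listed by name with earlier results of these data known, and all 10 were found by their Ensembl identifiers among the 33397 genes of the expression table. RNA came from mouse gastrocnemius (GAS) muscles in 8 groups of 4 samples, taken 0, 1, 3, 5, 7, 14, 21 and 28 d after the operation. The mice were male C57BL/6J animals aged 6 to 8 weeks per the study's methods (C57BL/6 in the labels), with no engineered allele given for these samples. In each denervated group a piece of the left sciatic nerve had been cut out. The 0 d group (Day0) was the reference, although the sources differ on it, since the labels name nerve transection for all groups, the expression table heads these samples as C, and the methods describe a sham operation without transection. Transection removes motor, sensory and autonomic fibres together, and whole muscle was taken, so the values mix muscle fibres with every other cell of the tissue.

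IL-6 family cytokines share a signalling chain, gp130, which is encoded by Il6st. A ligand first binds its own receptor chain, such as the IL-6 receptor (Il6ra) or the IL-11 receptor (Il11ra1), or joins gp130 with another signalling chain, such as the LIF receptor (Lifr) or the oncostatin M receptor (Osmr). JAK kinases bound to these chains then phosphorylate STAT3, which enters the nucleus and switches on target genes, among them Socs3, whose product blocks the receptor complex again. In skeletal muscle these cytokines are known from contraction, injury and wasting, and both muscle fibres and infiltrating leukocytes can make them.

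Expression was deposited as FPKM, a fragment rate scaled to exon length and to the size of the library, which can be compared between genes because it is given per length. The values went back to 14199902 to 17561584 whole fragments per sample. For the tests, log2(FPKM + 1) was fitted with limma over all 32 samples, and a call needed an adjusted p (Benjamini-Hochberg) under 0.05 together with a change of at least 1.5-fold on that scale. Fold changes of scarce transcripts come out too small on it. Over the 11943 genes that averaged 1 FPKM or more, the median log2 fold change against Day0 was itself between 0.12 (1 d) and 0.32 (14 d), and median-ratio scaling took it to between -0.04 and 0.01. Changes are therefore also given relative to that shift, as median-ratio scaling gives them. The scaling also moved the split of calls, since 68.7% to 79.5% of the genes called against Day0 were higher as deposited and 43.7% to 46.8% after scaling. All comparisons with Day0 share the same 4 Day0 samples. Fibre markers dominated every sample, since the summed FPKM of 6 skeletal muscle fibre genes was between 19576 and 35757. This sum averaged 34270 at Day0, 31175 at 1 d, 21415 at 3 d and 21870 at 28 d, and from 3 d on every sample lay below every Day0 sample, while at 1 d sample c lay within the Day0 range. The genes of the list did not all go 1 way, since mean Mb was 1805 FPKM at Day0 and 4138 FPKM at 28 d. Their part in the values of the 10 genes was not tested. The labels' extraction text names retinas, but 5 retina markers summed to at most 0.266 FPKM in any sample. Samples are named by the letter that heads their column (1 to 4 at Day0), and these letters are tied to no animal. Sample a of 3 d was the lowest of its group in 9 of the 10 genes, and so was sample c of 7 d. Sample b of 1 d and sample a of 14 d were each the lowest in 8 of the 10. Sample a of 3 d also had the lowest mean correlation with the other samples of its group (r = 0.969 over 13405 genes, against 0.979 to 0.99 in the other samples).

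In the denervated GAS muscles the 3 ligands were scarce at every time point, while the receptor chains, Stat3 and Socs3 were far more abundant, and 3 of the 5 receptor chains, Stat3 and Socs3 rose within 1 d. Stat3, Socs3, Osmr, Il6ra and Il6st were higher at 1 d, and 0 of the 10 genes were lower. These 5 of 10 genes compare with 6.34% of all 22071 tested genes that limma called higher at 1 d and 2.49% that it called lower. At an unadjusted p under 0.05, 7 of the 10 were higher and 1 was lower, against 25% and 12.1% of all tested genes. In bulk muscle, a change in the number of cells of a type and a change in RNA per cell cannot be told apart. After median-ratio scaling 4 of the 5 passed and Il6st did not, where 3.93% of all genes were called higher and 5.05% lower.

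**Figure D1:**
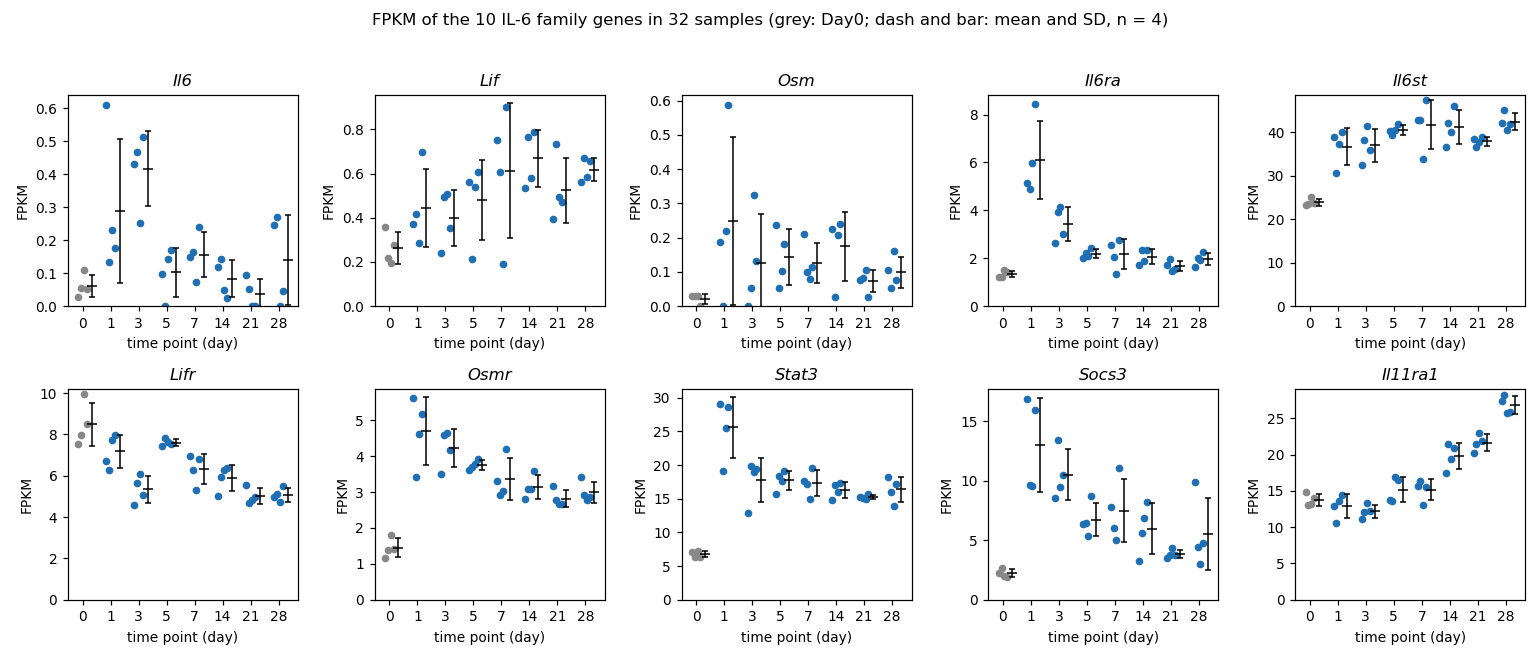
FPKM (y axis, 1 scale per panel, from 0) of each of the 10 genes against the time point in days (x axis), with 1 point per sample, Day0 in grey, and the mean and SD of the 4 samples as a dash and bar. Stat3, Socs3, Osmr and Il6ra have their highest mean at 1 d, Il11ra1 has its highest at 28 d (26.8 FPKM), and Lifr has its highest at 0 d (8.48 FPKM).

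Il6, which encodes IL-6 itself (ENSMUSG00000025746, chr5:30013114-30019981, plus strand, in GRCm38 as are all positions below), was detected by very few fragments. The Day0 samples held 1, 2, 4 and 2 fragments, or 0.0267, 0.0552, 0.108 and 0.0519 FPKM. At 1 d the samples held 21, 5, 9 and 7 fragments, or 0.609, 0.134, 0.23 and 0.175 FPKM, and at 3 d they held 16, 19, 10 and 21 fragments, or 0.43, 0.468, 0.253 and 0.513 FPKM. Every sample of 1 d and of 3 d thus lay above every Day0 sample, and sample a was the highest at 1 d. Summed over the 4 samples, the rate of Il6 fragments at 1 d was 4.61 times that at Day0 (exact 95% interval 2.21 to 10.8), or 2.99 times without sample a, and at 3 d it was 6.91 times (3.43 to 15.8). Such intervals cover counting error only. In the limma test the log2 fold change was 0.27 at 1 d (adjusted p = 0.0201) and 0.41 at 3 d (adjusted p = 0.000241), both under the 1.5-fold threshold with a pseudocount of 1. With a pseudocount of 0.1 both were called, at 1.15 (adjusted p = 0.0261) and 1.68 (adjusted p = 0.000791). From 5 d on, every group overlapped the Day0 range and 3 groups held samples with 0 fragments.

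Osm, which encodes oncostatin M (ENSMUSG00000058755, chr11:4236420-4241026, plus strand), held 1, 1, 1 and 0 fragments at Day0. Its 1 d samples held 6, 0, 8 and 22 fragments, or 0.186, 0, 0.219 and 0.586 FPKM. Sample b of 1 d, at 0 fragments, overlapped the Day0 group, and sample d held most of the signal. At 5, 7 and 28 d all samples lay above the Day0 samples, with 9, 2, 4 and 7 fragments at 5 d. The summed rate at 1 d was 11.9 times that at Day0 (exact 95% interval 3.75 to 60.2), against 6.28 times without sample d, and at 3 d it was 5.97 times (1.76 to 31.5), against 2.93 times without sample c. Limma gave a log2 fold change of 0.27 at 1 d (adjusted p = 0.0279), below the fold threshold, and 1.22 with the smaller pseudocount (adjusted p = 0.0326). At 14 d the summed rate was 8.07 times that at Day0 (exact interval 2.48 to 41.6), and limma called it with the smaller pseudocount (1.08, adjusted p = 0.0417). Both Il6 and Osm entered the test only through the denervated samples, since 1 Day0 sample reached 0.1 FPKM for Il6 and 0 did for Osm.

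Lif encodes leukaemia inhibitory factor and lies near Osm (ENSMUSG00000034394, chr11:4257557-4272514, plus strand). It was the most readily measured of the 3 ligands, with at least 13 fragments in every sample. The Day0 values were 0.358, 0.216, 0.196 and 0.275 FPKM, and the 14 d values were 0.537, 0.768, 0.581 and 0.789 FPKM. At 28 d the samples stood at 0.561, 0.67, 0.584 and 0.656 FPKM. The Day0 samples did not overlap those of 14, 21 or 28 d, whereas they overlapped those of 1, 3, 5 and 7 d, where samples c of 1 d, a and d of 3 d, b of 5 d and c of 7 d lay below the highest Day0 sample. The summed rate of Lif fragments at 14 d was 2.55 times that at Day0 (exact 95% interval 1.93 to 3.4). Limma gave log2 fold changes of 0.40 at 14 d (adjusted p = 0.0039) and 0.36 at 28 d (adjusted p = 0.00893), under the fold threshold with a pseudocount of 1 and called with a pseudocount of 0.1, at 1.10 (adjusted p = 0.00387) and 1.01 (adjusted p = 0.00724). With that pseudocount limma also called Lif at 7 d (0.86, adjusted p = 0.0206), at 21 d (0.78, adjusted p = 0.0392) and for 14, 21 and 28 d as 1 set (0.96, adjusted p = 0.00175).

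**Figure D2:**
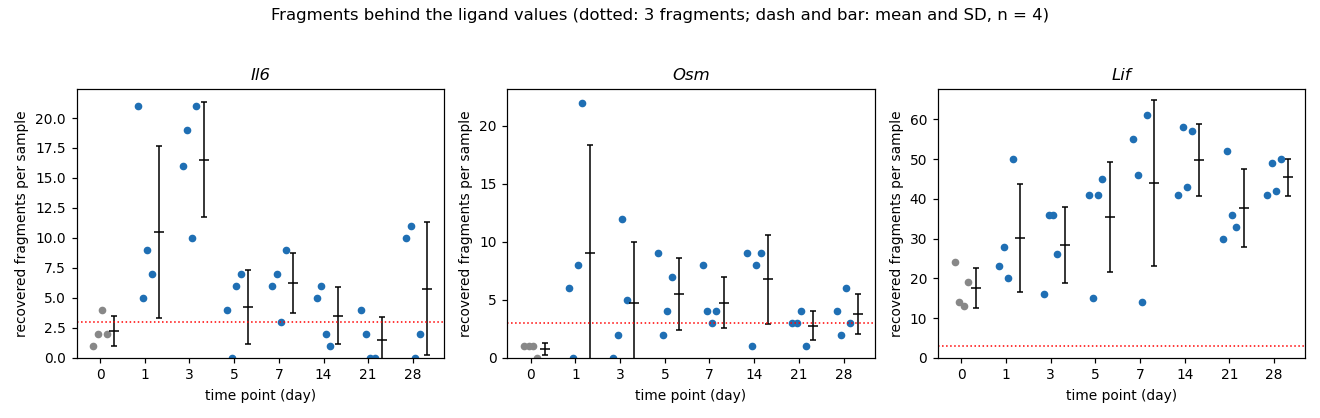
Fragments recovered per sample (y axis, 1 scale per panel, from 0) for Il6, Osm and Lif against the time point in days (x axis), with 1 point per sample and the mean and SD of 4 samples as a dash and bar. The dotted line marks 3 fragments, and the Day0 samples sit at 1 to 4 fragments for Il6, 0 to 1 for Osm and 13 to 24 for Lif.

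Il6ra, the ligand-binding chain for IL-6 (ENSMUSG00000027947, chr3:89864059-89913196, minus strand), rose early and was lower again by 3 d. The Day0 samples stood at 1.23, 1.2, 1.49 and 1.44 FPKM, and the 1 d samples at 5.13, 4.9, 5.97 and 8.46 FPKM. At 3 d the values were 2.64, 3.93, 4.15 and 3 FPKM. The groups of 0, 1 and 3 d did not overlap each other. Il6ra was 4.56-fold higher in mean FPKM at 1 d (log2 fold change 1.58 ± 0.14 SE, limma adjusted p = 3.48e-10) and higher at 3 d (0.91, adjusted p = 2.58e-06), and it fell from 1 d to 3 d by 0.67 on the log2 scale (adjusted p = 0.000278). Among the 6 steps between neighbouring denervated time points, this was the only one in which any of the 10 genes was called. Without sample d of 1 d (-0.53) or sample a of 3 d (-0.58) it did not reach the fold threshold. From 5 d on Il6ra averaged between 1.68 and 2.19 FPKM and did not reach the fold threshold with a pseudocount of 1, although the samples of 5, 14 and 28 d lay above all Day0 samples. With a pseudocount of 0.1 limma called it at 5 d, with 0.67 (adjusted p = 0.00313), and likewise at 7 d, with 0.62 (adjusted p = 0.00549). The exons of Il6ra share 242 bases with Gm42809, an antisense gene with a mean of 0.0642 FPKM.

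Osmr, the signalling chain for oncostatin M (ENSMUSG00000022146, chr15:6813577-6874969, minus strand), rose early as well but did not return to its starting level. The Day0 samples were at 1.17, 1.38, 1.82 and 1.42 FPKM, and the 1 d samples at 5.61, 3.41, 4.61 and 5.18 FPKM. At 28 d they were at 3.42, 2.91, 2.77 and 2.86 FPKM. No denervated sample of any time point overlapped the Day0 samples. The log2 fold change was 1.21 ± 0.11 SE at 1 d (limma adjusted p = 3.79e-10) and between 0.64 and 1.09 from 3 d to 28 d, called at each time point. Relative to the shift of the median, the changes of 1.10, 0.93 and 0.70 at 1, 3 and 5 d passed, and those of 0.45 to 0.58 from 7 d on were below the fold threshold.

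Il6st, which encodes the shared chain gp130 (ENSMUSG00000021756, chr13:112464070-112510086, plus strand), had the highest level of the 10 genes. It was at 23.2, 23.6, 25.1 and 23.7 FPKM at Day0 and at 38.8, 30.5, 37.3 and 40 FPKM at 1 d, and the 28 d samples were at 42.1, 45.2, 40.6 and 41.8 FPKM. All 28 denervated samples lay above the 4 Day0 samples. Limma gave log2 fold changes between 0.59 (1 d) and 0.80 (28 d), each called with an adjusted p of at most 2.3e-06. Relative to the shift of the median they were 0.34 to 0.44 and did not reach 1.5-fold at any time point. The call at 1 d was also lost without Day0 sample 1 or any of the samples a, c and d of 1 d (0.55 to 0.58), and the call at 3 d without sample c of 3 d (0.55).

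Lifr, the signalling chain for LIF (ENSMUSG00000054263, chr15:7090614-7197489, plus strand), was the only one of the 10 genes called lower than Day0. It stood at 7.52, 7.97, 9.95 and 8.49 FPKM at Day0, at 4.6, 5.65, 6.07 and 5.05 FPKM at 3 d, and at 7.42, 7.84, 7.64 and 7.53 FPKM at 5 d. The 28 d samples were at 4.96, 5.13, 4.71 and 5.5 FPKM. The 3 d and 28 d samples lay below all Day0 samples, and the 5 d samples overlapped them. As deposited, Lifr was called lower at 21 d (log2 fold change -0.65, limma adjusted p = 4.89e-07) and 28 d (-0.64, adjusted p = 6.47e-07), and without Day0 sample 3 both changes fell short of the fold threshold (-0.58 and -0.57). With TPM in place of FPKM they did too, at -0.58 and -0.53. The 3 d change (-0.58) and that of 14, 21 and 28 d as 1 set (-0.58) lay just under the threshold, and both were called with a pseudocount of 0.1 (-0.66 for each) and in some fits without 1 sample (-0.60 to -0.63 for 3 d, -0.59 to -0.63 for the set). With median-ratio scaling Lifr was called lower at 3 d (-0.83), 7 d (-0.72), 14 d (-0.81), 21 d (-0.93) and 28 d (-0.97).

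Il11ra1, the ligand-binding chain for IL-11 (ENSMUSG00000073889, chr4:41699989-41769474, plus strand), followed a course of its own. Its Day0 samples were at 14.8, 13, 13.2 and 14.1 FPKM and its 1 d samples at 12.9, 10.6, 13.5 and 14.4 FPKM. The 21 d samples were at 20.2, 21.5, 23 and 21.8 FPKM, and the 28 d samples at 27.4, 28.2, 25.7 and 25.9 FPKM. The early groups overlapped Day0, and the groups of 14, 21 and 28 d lay above it, with 28 d above every other sample of the series. Limma called it higher at 21 d (log2 fold change 0.61, adjusted p = 6.05e-07) and 28 d (0.91, adjusted p = 3.78e-10), while after median-ratio scaling it was 0.32 and 0.56, below the fold threshold. The uncalled changes at 5 and 7 d, both 0.13 as deposited, turned to -0.25 and -0.24 with that scaling.

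Stat3, which encodes the transcription factor that these receptors activate (ENSMUSG00000004040, chr11:100885098-100939540, minus strand), was at 7.03, 6.4, 7.29 and 6.36 FPKM at Day0. The 1 d samples were at 29.1, 19.2, 25.5 and 28.6 FPKM, the 3 d samples at 12.9, 19.9, 19 and 19.4 FPKM, and the 28 d samples at 18.3, 16.1, 13.9 and 17.2 FPKM. All denervated samples lay above all Day0 samples, and sample a of 3 d stood apart from the other three. Stat3 went from 6.77 ± 0.462 FPKM (SD, n = 4) at Day0 to 25.6 ± 4.57 FPKM (SD, n = 4) at 1 d, a 3.78-fold higher mean (log2 fold change 1.76 ± 0.11 SE, limma adjusted p = 1.27e-12), and stayed 2.26- to 2.63-fold higher from 3 d to 28 d, with log2 fold changes between 1.07 and 1.27. Median-ratio scaling left it called at each time point, with 1.58 for 1 d and 0.79 to 1.02 later. Its exons share 72 bases with Stat5a on the opposite strand, which averaged 4.29 FPKM. These are transcript levels, and the phosphorylated form of STAT3 was not measured here.

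Socs3, whose product inhibits JAK kinases at gp130 (ENSMUSG00000053113, chr11:117966079-117970047, minus strand), had the largest change of the 10 genes at 1 d on the log2(FPKM + 1) scale, though not by ratio of mean FPKM, which was 11.4 for Osm. Its Day0 samples were at 2.24, 2.69, 2.02 and 1.94 FPKM and its 1 d samples at 16.9, 9.69, 9.6 and 16 FPKM. The 21 d samples were at 3.54, 3.75, 4.33 and 3.79 FPKM, and the 28 d samples at 9.91, 4.43, 2.97 and 4.79 FPKM. No denervated sample overlapped Day0, and at 28 d sample a lay far above the other three. Socs3 was 5.87-fold higher in mean FPKM at 1 d (log2 fold change 2.09 ± 0.25 SE, limma adjusted p = 1.43e-07). It was called at every later time point except 21 d, where it stood 0.59 higher on the log2 scale without passing (limma adjusted p = 0.0592). With a pseudocount of 0.1 limma called it there too (0.77, adjusted p = 0.0296). Median-ratio scaling left the calls at a pseudocount of 1 in place, with values of 1.95 at 1 d, 0.37 at 21 d and 0.64 at 28 d.

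The promoter windows were searched for the palindromic STAT consensus, the pair of short inverted repeats that STAT dimers are known to bind. The search covered 250 bases before to 50 bases after the annotated start in RefSeq (GRCm38.p6), which gave 11 windows for 9 of the 10 genes, all but Osm. The letters TTCNNNGAA read the same on both strands and were found in 1 of the 11 windows, that of Socs3, against 8.3% of all 32851 promoter windows. The stricter TTCCNGGAA, every match of which is also a match of the first, was found in 0 of the 11 and in 1.15% of all windows. In the gene lists described further on, TTCNNNGAA was found in 1 of 22 windows of STAT3-linked genes (that of Icam1), 1 of 6 windows of JAK-STAT inhibitors (that of Cish), 2 of 12 windows of transducers (1 site in overlapping windows of Gab1), 1 of 8 windows of other receptors and 0 of 6 windows of other ligands. The stretches of Socs3, Icam1 and Cish, the 3 genes among these with a feedback or target role, are shown with the matched letters in capitals. They are matches of letters, and binding was not measured.
Socs3: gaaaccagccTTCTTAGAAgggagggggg
Icam1: ggcgcgaggtTTCCCGGAAagtggccccg
Cish: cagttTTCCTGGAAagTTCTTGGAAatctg
The Socs3 stretch (chr11:117969502-117969530, minus strand) begins its match 154 bases before the RefSeq start, and the Icam1 stretch (chr9:21015888-21015916, plus strand) 42 bases before its own. The RefSeq start of Socs3 differs from the end of the gene span given above (chr11:117966079-117970047), and the stretch lies inside that span. The windows of Lifr, Osmr and Il11ra1 also lie inside the spans given for these genes. The Cish stretch (chr9:107296654-107296683, plus strand) has 1 match at the start and 1 that begins 11 bases after it.

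Put side by side over time, 5 genes were higher and 0 lower at 3 d, against 13.2% and 6.03% of all tested genes. From then on 4 were higher and 0 lower for each of 5 d (14.9% and 3.86% of all genes), 7 d (15.4% and 4.1%) and 14 d (14.6% and 3.83%). At 21 d, 4 were higher and 1 lower (11.8% and 3.93%), and at 28 d 5 and 1 (14.2% and 4.1%). Il6st, Osmr and Stat3 were higher at all 7 time points, Il6ra at 1 and 3 d, and Il11ra1 at 21 and 28 d. After median-ratio scaling the counts were 4 higher and 1 lower at 3 d (8.3% and 9.79% of all genes under that scaling) and 3 and 0 at 5 d (6.59% and 7.82%). They were 2 and 1 for each of 7 d (7.02% and 8.13%), 14 d (6.6% and 7.56%) and 28 d (6.75% and 8.02%), and 1 and 1 at 21 d (6.41% and 7.29%). With the 12 samples of 14, 21 and 28 d as 1 late set, 5 genes were higher (Stat3, Socs3, Il6st, Osmr and Il11ra1) and 0 lower, against 13.3% and 3.91% of all genes. With median-ratio scaling, 2 were higher (Stat3 and Socs3) and 1 lower (Lifr), against 6.42% and 7.5% of all genes.

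**Figure D3:**
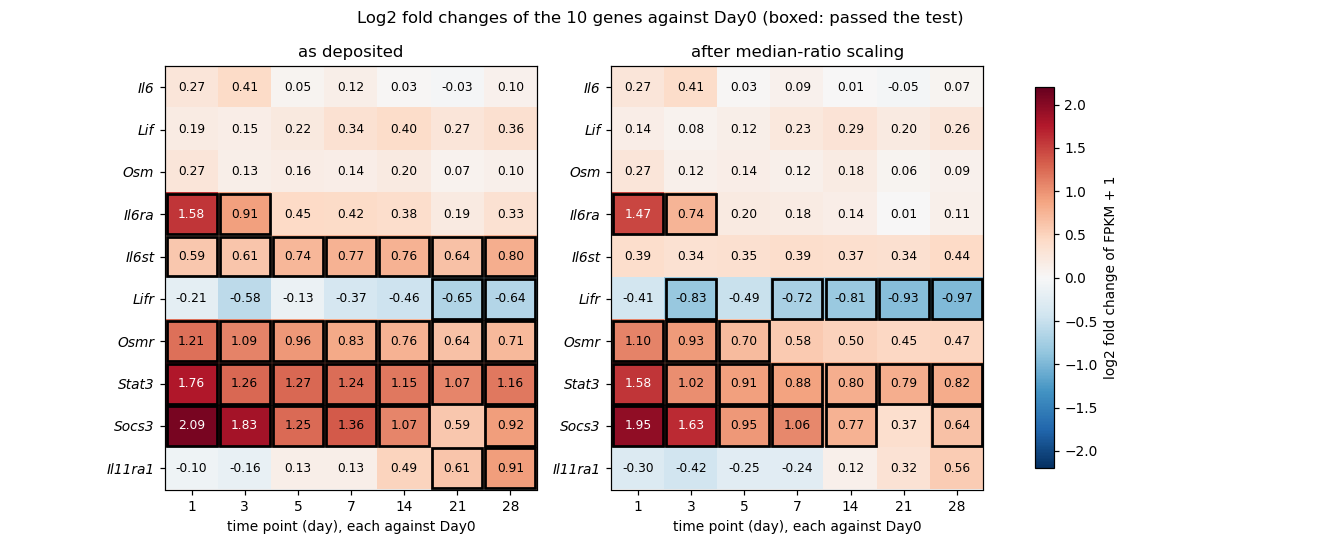
Log2 fold change of FPKM + 1 against Day0 (colour and printed value) for the 10 genes (rows) at each time point in days (columns), as deposited on the left and after median-ratio scaling on the right, with boxes around changes that passed the test. Stat3 is boxed at every time point on both sides, Il6st only as deposited, and Lifr at 2 time points as deposited and at 5 after scaling, while the unboxed values of Il11ra1 at 5 and 7 d change sign.

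Between 1 d and 28 d, 1 of the 10 genes rose and 3 fell, against 10.5% and 4.51% of all tested genes. Il6ra had fallen by 28 d (log2 fold change -1.24, limma adjusted p = 1.54e-08), and so had Socs3 (-1.17, adjusted p = 0.000389) and Stat3 (-0.60, adjusted p = 9.01e-05). Il11ra1 was higher (1.01, adjusted p = 6.69e-11). The 1 d and 28 d samples of Il6ra, Stat3 and Il11ra1 did not overlap, whereas sample a of 28 d placed Socs3 within its 1 d range. Osmr was lower as well with median-ratio scaling (-0.63), which gave 1 higher and 4 lower of the 10, against 7.93% and 6.35% of all genes. The Stat3 difference was below the fold threshold without sample a or d of 1 d or sample c of 28 d (-0.53 to -0.54). Over the 5 steps after 3 d, 0 of the 10 genes were called between neighbouring time points by limma, while of all genes 5.76% were called from 3 d to 5 d, 0.657% from 5 d to 7 d, 0.634% from 7 d to 14 d, 0.453% from 14 d to 21 d and 0.199% from 21 d to 28 d. At an unadjusted p under 0.05, those 50 tests gave 4 higher and 5 lower values, against 9.3% and 6.79% of the tests of all genes over the same steps. From 1 d to 3 d, where Il6ra was called, 10.6% of all genes were.

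Ordered by group mean, most neighbouring groups overlapped. For Stat3, Socs3 and Osmr, 6 of the 7 neighbouring pairs did, and the ranges were apart only between 21 d, the lowest denervated mean, and Day0. For Il6ra the order was 1 d, 3 d, 5 d and then the rest, with gaps only after 1 d and after 3 d. For Il11ra1 the gaps lay between 28 d and 21 d and between 14 d and 5 d, and for Il6st between 5 d and 21 d and between 1 d and Day0. All 7 pairs overlapped for Lifr, Il6, Osm and Lif.

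The rest of the pathway was taken from lists of further genes. Of 8 other family ligands, 6 were tested, and limma called 0 at 1 d (1 at an unadjusted p under 0.05), where Ctf1, cardiotrophin 1, was at 4.79 FPKM against 4.83 at Day0. Of 4 other receptor genes, 3 were tested. Cntfr, the receptor for ciliary neurotrophic factor, rose 4.06-fold at 1 d (3.7 to 15 FPKM, log2 fold change 1.78, adjusted p = 9e-11) and was lower than Day0 at 3 d (1.42 FPKM, -0.95, adjusted p = 2.63e-06). It was called higher again at 5 d (6.93 FPKM, 0.76, limma adjusted p = 6.93e-05), though not after median-ratio scaling (0.43), and was at 5.92 FPKM at 14 d (0.57, below the fold threshold). Il11ra2, with 0.208 FPKM at Day0, is a near copy of Il11ra1 and its value is uncertain.

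Of 9 further JAK-STAT transducers, all tested, only Stat5b was called at 1 d (48.2 to 88.6 FPKM, log2 fold change 0.87, limma adjusted p = 2.44e-07). At 28 d Stat5a (0.80), Tyk2 (0.78) and Grb2 (0.62) were called higher, and 0 of these 3 passed after median-ratio scaling. Jak2, a receptor-bound kinase gene, was at 14.9 FPKM at Day0, 9.83 FPKM at 3 d and 11.2 FPKM at 28 d, with log2 fold changes of -0.55 and -0.38 under the fold threshold, and it was called lower after median-ratio scaling at each time point from 3 d on (-0.73 to -0.89). Of 8 further inhibitors, 4 were higher at 1 d (6.34% of all tested genes were), the largest changes being those of Cish (0.573 to 2.76 FPKM, log2 fold change 1.23, adjusted p = 1.43e-06), Socs2 (0.96, adjusted p = 2.05e-08) and Ptpn2 (0.79, adjusted p = 3.24e-07). At 3 d 2 of the inhibitors were higher (Ptpn2 and Ptpn6), against 13.2% of all tested genes. Cish (0.46 FPKM) and Socs2 (1.48 FPKM, against 1.53 at Day0) were not called at 3 d. Cish, a feedback inhibitor known from STAT5 signalling, was at 0.513 FPKM at 28 d and was not called there. The median log2 fold change was 0.14 over the transducers and 0.42 over the inhibitors at 1 d. It was 0.03 over all tested genes and 0.12 over those that averaged 1 FPKM or more. After median-ratio scaling the medians were 0.007 over the transducers and 0.27 over the inhibitors.

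Genes commonly described as STAT3 targets were mostly higher early. Of the 22 listed, 21 were tested (Mt2 was below the filter), and 17 were higher and 0 lower at 1 d (19 and 1 at an unadjusted p under 0.05), with a median log2 fold change of 1.94 against 0.03 over all tested genes. At 3 d 18 were higher and 1 lower. The number of higher genes was 15 (5 d), 12 (7 d), 10 (14 d) and 9 (21 d and 28 d) after that, with Vegfa, a vascular growth factor gene, the 1 lower gene from 3 d on. After median-ratio scaling 15 were higher for 1 d and 3 d, 9 for 5 d and 7 d, 8 for 14 d, 6 for 21 d and 7 for 28 d, with Vegfa lower throughout. The shares of all genes called are those given for the 10 genes. On the log2(FPKM + 1) scale the largest changes at 1 d were those of Lcn2 (0.295 to 41.6 FPKM, log2 fold change 5.03, limma adjusted p = 3.47e-17), Serpina3n (3.98 to 114 FPKM, 4.53, adjusted p = 1.94e-15) and Mt1 (8.09 to 172.9 FPKM, 4.21, adjusted p = 3.89e-14), which encode an iron-siderophore binding protein, a protease inhibitor and a metallothionein. That order depends on the pseudocount, since with 0.1 the change of Saa3, an acute-phase gene at 0.0129 FPKM at Day0 and 4.06 FPKM at 1 d, was 5.03, above Serpina3n (4.83), Timp1 (4.41) and Mt1 (4.36). At 28 d Lcn2 was at 0.691 FPKM and was called only with the smaller pseudocount (1.05), whereas Timp1 (3.50, adjusted p = 3.03e-09), Serpina3n (2.25, adjusted p = 8.84e-10) and Mt1 (1.96, adjusted p = 4e-08) were still higher. Between 1 d and 28 d, 14 of the 21 fell and 1 rose, or 15 and 0 after median-ratio scaling. Many other factors drive these genes, and the list was drawn up with earlier results of these data known.

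**Figure D4:**
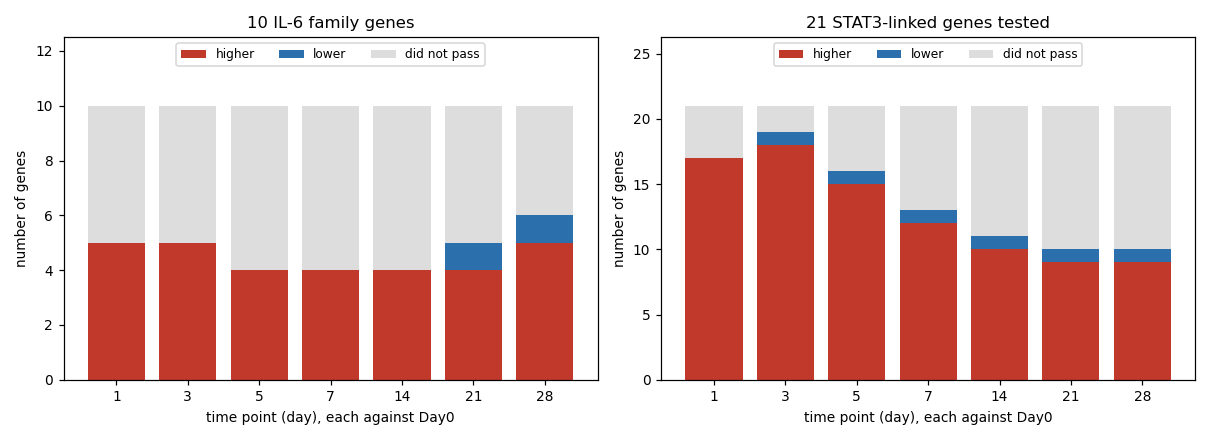
Number of genes (y axis, from 0) called higher, called lower or not passing the test at each time point against Day0 (x axis, days), for the 10 IL-6 family genes on the left and the 21 tested STAT3-linked genes on the right. The higher genes go from 17 at 1 d and 18 at 3 d to 9 at 28 d among the STAT3-linked genes and stay at 4 or 5 among the 10.

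Markers of other cells moved over the same days. The summed FPKM of 6 neutrophil markers was 1.3 to 2.3 at Day0 and 9.04 to 97 at 1 d. At 1 d sample d was the highest and sample b the lowest, as they were for Osm, Il6ra, Il6st, Lifr and Il11ra1. Of these genes, limma called only Il6ra and Il6st at 1 d with a pseudocount of 1. Stat3, Osmr, Socs3 and Il6 were highest in sample a instead. Lif was highest in sample d, and Lif and Socs3 were lowest in sample c. In Day0 samples 4 of the 6 neutrophil markers passed 3 fragments anywhere, and all 6 did at 1 d. From 3 d to 28 d the mean of the neutrophil sum stayed 14.5 to 22 times that at Day0, with 29.1 FPKM at 28 d. The genes of this list did not all go 1 way between 1 d and 28 d. Mean S100a8 went from 9.12 to 22.7 FPKM, most of the 28 d sum, and Retnlg from 2.89 to 3.31 FPKM. In contrast, S100a9 went from 29.1 to 1.88 FPKM and Csf3r from 3.69 to 1.05 FPKM. Cxcr2 went from 1.87 to 0.102 FPKM and Ly6g from 0.129 to 0.0151 FPKM. For 8 macrophage and monocyte markers the sum was 115.3 to 166.2 at Day0, 171.5 to 278.3 at 1 d and 251.6 to 832.3 at 3 d, with sample a of 3 d the lowest. It averaged 600 FPKM at 7 d, from 311 to 1005, overlapping the range at 3 d, and ranged from 374.7 to 453.1 at 28 d. For 6 fibroblast and fibro-adipogenic markers it was 376.3 to 485.9 at Day0 and 343.6 to 438.5 at 1 d, and at 5 d, at 517.2 to 617.9, it lay above every Day0 sample. Its mean was 410.4 at Day0, 520.4 at 7 d and 488.8 at 28 d. Myod1, Pax7 and Myf5 summed to 7.79 to 11.4 FPKM at Day0 and 87.6 to 109.7 at 28 d, of which Myod1, a gene that denervated fibres are also known to express, made up a mean of 7.88 and 94.6. For 4 T cell markers the sum was at most 0.812 FPKM in any sample, for 5 endothelial markers it went from 81.5 to 93.1 at Day0 to 55.3 to 65.9 at 28 d, and for 5 Schwann cell markers from 76.3 to 169.1 to 9.81 to 24.5. The part of these cells in the levels of the 10 genes was not tested.

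**Figure D5:**
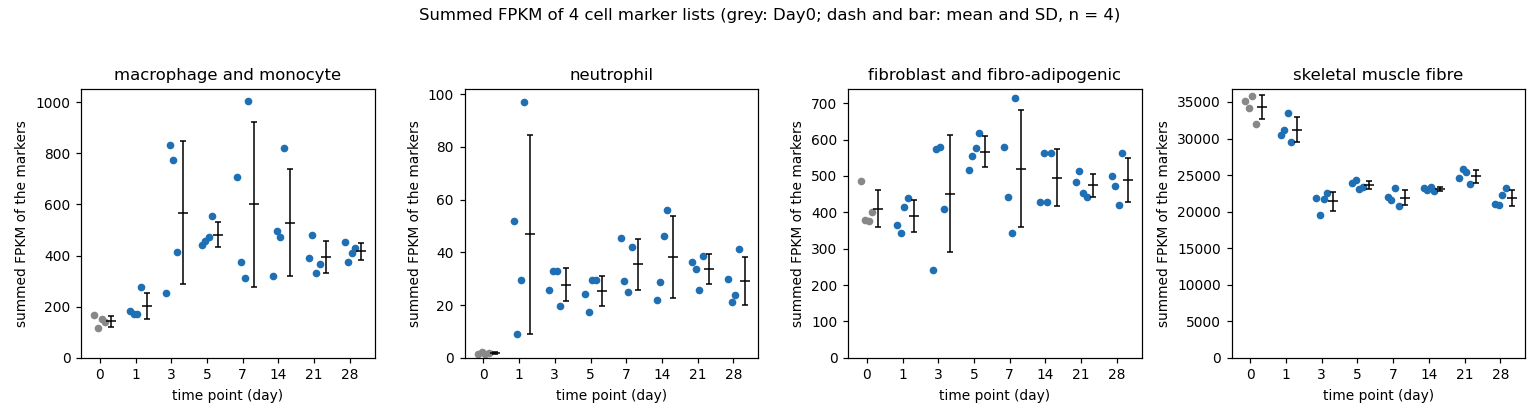
Summed FPKM (y axis, 1 scale per panel, from 0) of 4 marker lists against the time point in days (x axis), with 1 point per sample, Day0 in grey, and the mean and SD of 4 samples as a dash and bar. Neutrophil markers are at 1.3 to 2.3 at Day0 and 9.04 to 97 at 1 d, and macrophage and monocyte markers have sample a lowest at 3 d (251.6).

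Over the 32 samples, which share the time course, log2(FPKM + 1) of Stat3 ran with that of Osmr (Pearson r = 0.94) and Socs3 (0.84), and Osmr with Socs3 (0.90), while Il11ra1 and Stat3 had r = 0.04. These values are descriptions over samples of 8 groups. Among 11940 genes that averaged 1 FPKM or more, the 3 most like Stat3 were Junb (r = 0.97), Chd1 (0.94) and Nfe2l2 (0.94). For Osmr they were Sbno2 (0.95), Bcl3 (0.93) and Junb (0.93), and for Socs3 Sbno2 (0.93), Ier3 (0.92) and Tuba1c (0.91). For Il6ra they were Mnt (0.94), Bach1 (0.94) and Ddit4 (0.94), for Il6st Itsn2 (0.96), Mdc1 (0.94) and Sap30bp (0.94), and for Lifr Zfp462 (0.89), Zfp467 (0.89) and Synm (0.88). Il11ra1 ran closest to Whrn (0.95), Gm5424 (0.95) and Ass1 (0.95).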

How the data were processed

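RNA of 32 GAS muscle samples (8 groups of 4) was sequenced by the authors, who deposited 1 table of FPKM values per gene. Per the labels the reads were processed with CASAVA, HISAT2 2.1.0 and DESeq2 on GRCm38. The study's methods describe paired-end libraries from a VAHTS kit, and whether strand was used in counting is not given in the sources used here. FPKM depends on the other transcripts in the sample, so a change in a few abundant genes can shift all others.

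From the deposited FPKM values, fragments were recovered with the exon lengths of GENCODE M21 (33356 of 33397 genes). Below 200 fragments, 99.3% to 99.4% of values were whole within 0.05, and samples held 14199902 to 17561584 fragments. A gene entered the test when 4 or more samples reached 0.1 FPKM (22071 genes). Tests were run with limma 3.58.1 in R 4.3.3 on log2(FPKM + 1) with a variance trend, the 8 groups in 1 fit and Benjamini-Hochberg adjustment over all tested genes. Calls needed an adjusted p under 0.05 and 1.5-fold. Exact 95% intervals for ratios of fragment rates cover counting error only. On simulated data for 1 d against Day0 (20827 genes), 191 of 200 genes changed 2-fold on the log2(FPKM + 1) scale were recovered (95.5%) with 2 false calls. The changed genes were drawn from those at 1 FPKM or more at Day0, and no shift common to all genes was added. This rate therefore does not cover scarce genes such as Il6, Osm and Lif, nor the shift of the median. All 48 pairs of samples within groups differed beyond counting noise (chi-square per gene 2.5 to 30.3). The study's text calls its samples biologically independent and the labels do not tie them to animals, so p-values measure the spread between these samples. Alternatives were a pseudocount of 0.1, no filter, median-ratio scaling, TPM, no variance trend, no fold threshold, fits on the compared groups only and leaving out each sample. The text names the 10 genes, up to 3 genes per pathway list by size of change among those called at the time point described (by mean FPKM where none was), and the 3 genes most like each of the 10 by Pearson correlation. Vegfa, Icam1, Saa3, Gab1, Jak2, Mb and Il11ra2, Timp1 at 1 d, Cntfr at 14 d, and Cish and Lcn2 at 28 d, were named after their values were seen. So were Cish and Socs2 at 3 d and the single genes of the neutrophil, fibroblast and Schwann cell lists. The 10 genes and the lists were chosen with earlier results of these data known. Promoter sequences came from RefSeq (GRCm38.p6). The deposited table was matched to groups by its column heads, and the columns headed C were taken as Day0. Some results for the other family ligands are not reported here.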

Additional observations from a re-analysis of the deposited data

Results flagged for a closer look

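Dixon's test was applied to 80 sets of 4 values (10 genes, 8 days). It picked out 4 lone values, and chance at 1 in 20 would give 4. Stat3 at 3 d was at 12.9 FPKM in sample a, against 19 to 19.9 FPKM in the other three. Lif at 5 d was at 0.211 FPKM in sample b, against 0.541 to 0.605 FPKM. Osm was at 0 FPKM in Day0 sample 4, against 0.0286 to 0.0295 FPKM, which is a difference of 1 fragment, and at 14 d it was at 0.0253 FPKM in sample b, against 0.207 to 0.238 FPKM. Sample a of 3 d also had the lowest summed macrophage and monocyte markers of its group (251.6 FPKM) and the lowest fibroblast markers (240.9 FPKM), and their part in the Stat3 value was not tested.

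The changes against Day0 differed between 28 d and 1 d for 4 genes by limma with Benjamini-Hochberg adjustment. Il6ra differed by a log2 fold change of -1.24, lower in 4 of 4 samples at 28 d than every sample at 1 d, Socs3 by -1.17 and Stat3 by -0.60, and Il11ra1 by 1.01, higher in 4 of 4 samples.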

How the results depend on the processing

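No paired analysis was possible because the letters of the columns match no replicate number in the labels. The number of the 10 genes called went with median-ratio scaling to 2 at 21 d (13.7% of all genes), 3 at 28 d (14.8%) and 3 for the 3 late time points together (13.9%), and with TPM to 7 at 14 d (34.5%). Without a fold threshold it was 7 at 7 d (47.3%), 8 at 14 d (47.3%), 8 for the late time points together (52%) and 7 for 28 d against 1 d (40.2%). Over the 6 steps between neighbouring time points, 1 call (3.04% of the tests of all genes) became 3 with a pseudocount of 0.1 (5.48%), 2 with median-ratio scaling (2.97%), 2 with TPM (4.51%), 8 without a fold threshold (10.2%) and 0 to 2 when 1 sample was left out (2 without sample b of 1 d, 0 without sample d of 1 d or sample a of 3 d). Uncalled values changed sign for Il11ra1 with TPM at 1 d (0.0109) and with median-ratio scaling at 5 d (-0.25) and 7 d (-0.24), and for Lifr with TPM at 5 d (0.0389). With TPM the calls of Lifr at 21 d (-0.58) and 28 d (-0.53) and of Stat3 between 28 d and 1 d (-0.56) were lost. Leaving out 1 sample, in 808 fits of 91 values for single genes, lost 12 calls, gained 11 and reversed 0. Osmr between 28 d and 1 d was called without sample b of 1 d (-0.62). Socs3 at 21 d was called when only the groups compared were fitted. Dropping the filter or the variance trend changed no call among the 91 values. The causes were not tested. Depth limited Il6 and Osm, with 9 and 3 fragments over the 4 Day0 samples.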
